A study of Rattus norvegicus with 12 samples.

Results

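The genes described here are the 53 rat genes of bone morphogenetic protein (BMP), transforming growth factor beta (TGF-beta) and activin signalling that the array's own gene names list, from the ligands through the receptors and SMADs to the extracellular antagonists and latent binding proteins. They were chosen by name, not by their values. They had 85 of the 45598 rat probes on the array, and 50 of them had a probe that 4 or more of the 12 arrays read well above background, among 20789 such genes in all. The 3 without one were Bmp6, Gdf5 and the type I receptor gene Bmpr1b, whose best probes passed that limit on 3, 2 and 0 arrays. RNA came from calvarial bone, the flat bone of the skull roof, of 10-week-old rats 24 h after surgery, with 4 arrays in each of 3 groups. In the laser group a rectangle of 8 by 3 mm was ablated with an Er:YAG laser, an erbium laser with light that water absorbs, in 3 strokes at 20 Hz and 127 mJ per pulse at the tip. In the bur group a defect of the same area was cut with a rotating bur. In the control group the periosteum was stripped and the bone itself was not cut, so all groups shared the surgery and none was untouched bone. Strain and sex are not given in the sources used here.

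BMPs, growth and differentiation factors (GDFs), TGF-betas and activins are secreted dimers that bring type I and type II receptor kinases together on the target cell. BMP receptors activate SMAD1, SMAD5 and SMAD9, TGF-beta and activin receptors activate SMAD2 and SMAD3, and both classes share SMAD4 on the way to the nucleus. In bone the BMPs are known as inducers of osteoblast formation, and TGF-beta is stored in the matrix in latent form, bound to latent binding proteins, and is released during remodelling and repair.

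Arrays differed before normalization. The median processed signal was 55.6 to 81.9 on laser arrays, 18.6 to 28.3 on bur arrays and 16.5 to 43.2 on control arrays, and 67.5% to 72.0%, 57.0% to 59.9% and 57.2% to 64.4% of spots in these groups were well above background. The laser arrays lay on 1 slide and the bur and control arrays on another, so slide and laser treatment cannot be told apart. On their slide, bur and control arrays filled separate columns, and column and treatment cannot be told apart either. Markers of bone, Col1a1 and Runx2 among them, were read in every group, and the 8 osteoblast markers were all measured. Control 1 and control 4 stood apart from the other control arrays by nervous tissue transcripts: the summed signal of 5 measured markers (Mog and Nefl did not pass the filter) spanned 473 to 11041 on control arrays, against 233 to 447 on laser arrays and 136 to 1087 on bur arrays. Counts of members are therefore also given without both. Of 6 measured erythroid markers all 6 fell in each comparison with control bone. In bulk RNA, fewer cells of a type and less RNA per cell cannot be told apart.

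Of the 50 measured members, 27 passed the test in at least 1 comparison and 23 in none. A gene is called here when its adjusted p in limma was under 0.05, with Benjamini-Hochberg adjustment over all 20789 genes. In laser against control bone 14 members rose and 3 fell, 34.0% of the 50, where 35.8% of all genes were called. In bur against control bone 12 rose and 1 fell, 26.0%, where 21.6% of all genes were called. In laser against bur bone 5 were higher and 9 lower, 28%, where 29.7% of all genes were called. Higher calls took 19.1% of all genes and lower ones 16.7% in laser against control bone, 11.4% and 10.2% in bur against control bone, and 15.5% and 14.2% in laser against bur bone, and whether the members' split differs from these was not tested. In bur against control bone the count depended on the processing: with normexp background correction 20 members were called (40.0%, against 28% of all genes). Gdf6, Nog, Smad6, Smad9 and Tgfbr3 had fewer than 4 arrays well above background outside a single group, and of these 5 only Gdf6 was called. Of the other 45 members 13 rose and 3 fell in laser against control bone. In bur against control bone 12 of the 45 rose and 1 fell, and in laser against bur bone 4 were higher and 9 lower. Laser and control arrays did not overlap for 17 members, where they did not for 37.4% of all genes. Bur and control arrays did not overlap for 13 members, against 22.2% of all genes, and laser and bur arrays for 11, against 34.8%. The 17 and the 11 include Gdf6, whose separation the detection filter favoured. The members' median log2 fold change was 0.27, 0.41 and -0.13 in these comparisons, and the median of all genes lay between -0.02 and 0.01. For the 45 members the medians were 0.27, 0.44 and -0.18. Without control 1 and control 4 the counts were 10 rises and 0 falls in laser against control bone (20.0%, where 25.9% of all genes were then called) and 7 and 1 in bur against control bone (16.0%, where 13.4% were), and 4 higher and 7 lower in laser against bur bone (22.0%, where 30.3% were). Gdf6 was among these 10 rises and 4 higher members. Both comparisons with control bone use the same control arrays.

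**Figure D1:**
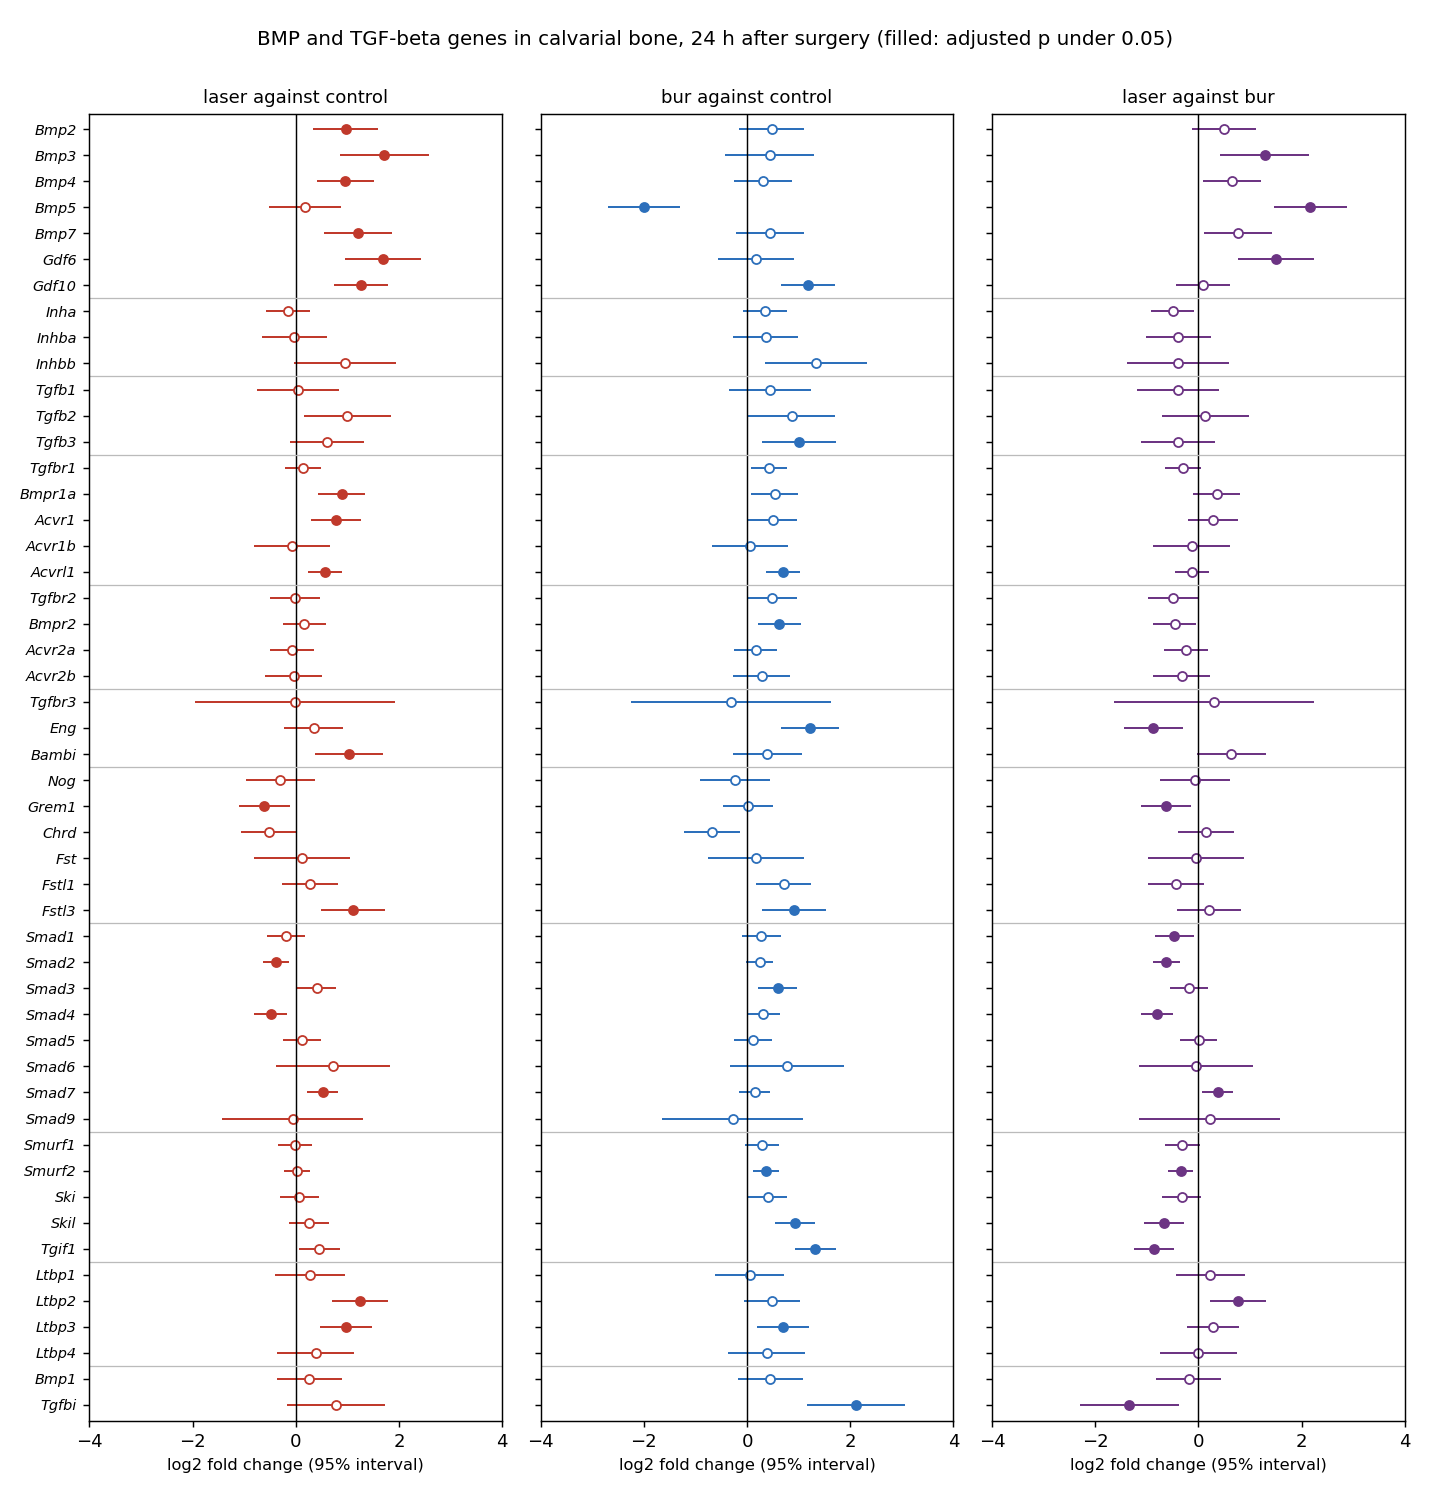
Log2 fold change of each of the 50 measured members (point) with its 95% interval (line), for laser against control, bur against control and laser against bur, with 4 arrays a group; filled points have an adjusted p under 0.05 and grey lines part the roles. The BMP and GDF ligands at the top lie to the right in laser against control bone, Bmp5 is the only filled point on the left in bur against control bone, and the co-repressors Skil and Tgif1 lie to the right there and to the left in laser against bur bone. The fitted values of Gdf6 are drawn at 1.69 against control and 1.51 against bur for laser. Only the bounds in the text apply to them, because neither bur nor control arrays read Gdf6 well above background.

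Among the ligands, 5 of 6 BMP and GDF genes rose in laser against control bone, with a median log2 fold change of 1.09, when Gdf6, which passed the detection limit only through the laser arrays, is set aside. In bur against control bone 1 of the 6 rose and 1 fell. Of all genes 35.8% and 21.6% were called in these comparisons. Bmp2 and Bmp7, known inducers of bone formation, Bmp4, a close relative of Bmp2, and Bmp3, known in mouse bone as a BMP that opposes osteogenic BMPs, were all higher after the laser. Signals below are log2 of the normalized processed signal, and each value is 1 array.

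Bmp3 read 7.29, 7.10, 6.36 and 6.34 on the laser arrays, 5.53, 5.19, 5.54 and 5.69 on the bur arrays, and 5.47, 6.07, 4.48 and 4.19 on the control arrays. Every laser array lay above every bur and control array, and the control arrays were the most spread. The rise against control was 1.72 ± 0.39 log2 (SE; limma adjusted p = 0.00539), and against bur it was 1.28 ± 0.39 (adjusted p = 0.0275). The first kept its call with each array left out in turn, while the second lost it without bur 2, bur 3, laser 1 or laser 2, with an adjusted p of up to 0.0798.

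Bmp7 read 5.93, 5.82, 5.34 and 4.84 on the laser arrays, 4.98, 4.35, 4.70 and 4.82 on the bur arrays, and 4.73, 4.62, 3.62 and 4.13 on the control arrays. Laser and control arrays did not overlap, and the lowest laser array fell within the range of the bur arrays. The rise in laser against control bone was 1.21 ± 0.29 log2 (adjusted p = 0.00798). Against bur the difference was 0.77, with a 95% interval from 0.13 to 1.41, and did not pass (adjusted p = 0.0690).

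Bmp4 averaged 7.21 ± 0.17 in laser bone, 6.56 ± 0.49 in bur bone and 6.24 ± 0.35 in control bone (SD, n = 4 each). It rose by 0.96 ± 0.25 log2 (SE) in laser against control bone (limma adjusted p = 0.0106). Bmp2 averaged 8.94 ± 0.53, 8.45 ± 0.19 and 7.97 ± 0.45 in laser, bur and control bone, with a rise of 0.97 ± 0.28 in laser against control bone (limma adjusted p = 0.0187). For Bmp2 the groups overlapped, the call was lost without laser 1, laser 2 or control 4 (adjusted p up to 0.0577), and the other 2 probes of the gene gave 0.71 and 0.92, neither called. The call of Bmp2 was also lost with the authors' deposited values refitted, at 0.39 (adjusted p = 0.285), and without control 1 and control 4 together, at 0.79 (adjusted p = 0.131). Neither gene passed in laser against bur bone, where Bmp4 differed by 0.65 (95% interval 0.11 to 1.19) and Bmp2 by 0.50 (-0.11 to 1.1).

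Bmp5, a ligand of the Bmp7 subclass, showed another pattern. Its signals were 9.21, 8.72, 8.52 and 9.35 on the laser arrays, 6.96, 7.07, 6.27 and 6.81 on the bur arrays, and 9.39, 8.87, 8.93 and 7.91 on the control arrays. The bur arrays were low as a group and overlapped neither other group, while laser and control arrays overlapped. It fell by 1.99 ± 0.31 log2 in bur against control bone (0.251-fold, adjusted p = 0.00151) and was 2.17 ± 0.31 higher in laser against bur bone (4.5-fold, adjusted p = 0.000398). In laser against control bone the difference was 0.18, with an interval from -0.51 to 0.86 (adjusted p = 0.688). Both calls held under all 24 other settings tried, with a fold change of -2.28 to -1.67 in bur against control bone.

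Gdf10, also called Bmp3b, a relative of Bmp3, was higher after both kinds of cutting. It read 7.78, 7.42, 7.07 and 7.67 on the laser arrays, 6.90, 7.15, 7.75 and 7.81 on the bur arrays, and 6.47, 6.25, 6.16 and 6.02 on the control arrays. All control arrays lay below all others, and laser and bur arrays overlapped. The rise was 1.26 ± 0.23 log2 in laser bone (adjusted p = 0.00159) and 1.18 ± 0.23 in bur bone (adjusted p = 0.00450), and laser and bur bone differed by 0.08 (95% interval -0.42 to 0.59).

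The sequences next to the starts of Bmp5 and Gdf10 are shown because both genes are ligands whose calls held under every setting, 1 lower in bur bone and 1 higher in both cut groups. They are from RefSeq, assembly GRCr8, and run from 250 bases before to 50 after the annotated start. Capitals mark CAGAC, a known binding element of SMAD3 and SMAD4, and GGCGCC, a motif known to be bound by SMAD1 and SMAD5, on either strand. The window of Bmp5 is chr8:85397379-85397678 on the plus strand and that of Gdf10 is chr16:9243262-9243561 on the plus strand.
Bmp5: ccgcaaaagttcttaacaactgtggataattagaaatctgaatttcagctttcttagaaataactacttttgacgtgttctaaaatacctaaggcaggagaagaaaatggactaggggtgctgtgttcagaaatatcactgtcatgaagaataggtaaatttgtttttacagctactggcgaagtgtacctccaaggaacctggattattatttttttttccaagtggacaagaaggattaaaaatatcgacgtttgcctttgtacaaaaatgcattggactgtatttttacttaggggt
Gdf10: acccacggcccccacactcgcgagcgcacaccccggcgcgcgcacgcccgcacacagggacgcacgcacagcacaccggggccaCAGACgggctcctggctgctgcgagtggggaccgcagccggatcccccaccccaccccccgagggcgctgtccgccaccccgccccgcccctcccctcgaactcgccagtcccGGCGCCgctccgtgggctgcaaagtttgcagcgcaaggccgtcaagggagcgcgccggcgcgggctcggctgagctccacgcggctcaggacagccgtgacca
The Bmp5 window held neither motif, and the Gdf10 window held 1 of each. Windows were at hand for 41 members. CAGAC stood in 14 of them (34.1%), against 50.1% of all 33469 windows, and GGCGCC in 18 (43.9%), against 11% of all windows. The palindrome GTCTAGAC, another known SMAD3 and SMAD4 element, stood in 0 of the 41 and in 0.197% of all windows. None of the 3 motifs contains another. These shares were not compared at equal base composition.

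Gdf6, a ligand known from skull and joint development, was dim. It read 2.83, 3.07, 2.83 and 2.59 on the laser arrays, 1.94, 0.78, 0.78 and 1.78 on the bur arrays, and 0.92, 0.80, 1.96 and 0.90 on the control arrays. It was well above background on all 4 laser arrays and on 0 bur or control arrays, so it was measured only because of the laser arrays, and only a bound can be given: it was at least 1.21-fold higher in laser than in control bone and at least 1.05-fold higher than in bur bone. Since the group in which it is high put it among the measured genes, no p is given. The bound sets the laser mean against the mean of, per dim array, the higher of its detection limit and the probe's own signal. With normexp background correction the fold changes were 0.13 and 0.12 log2 and neither was called.

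**Figure D2:**
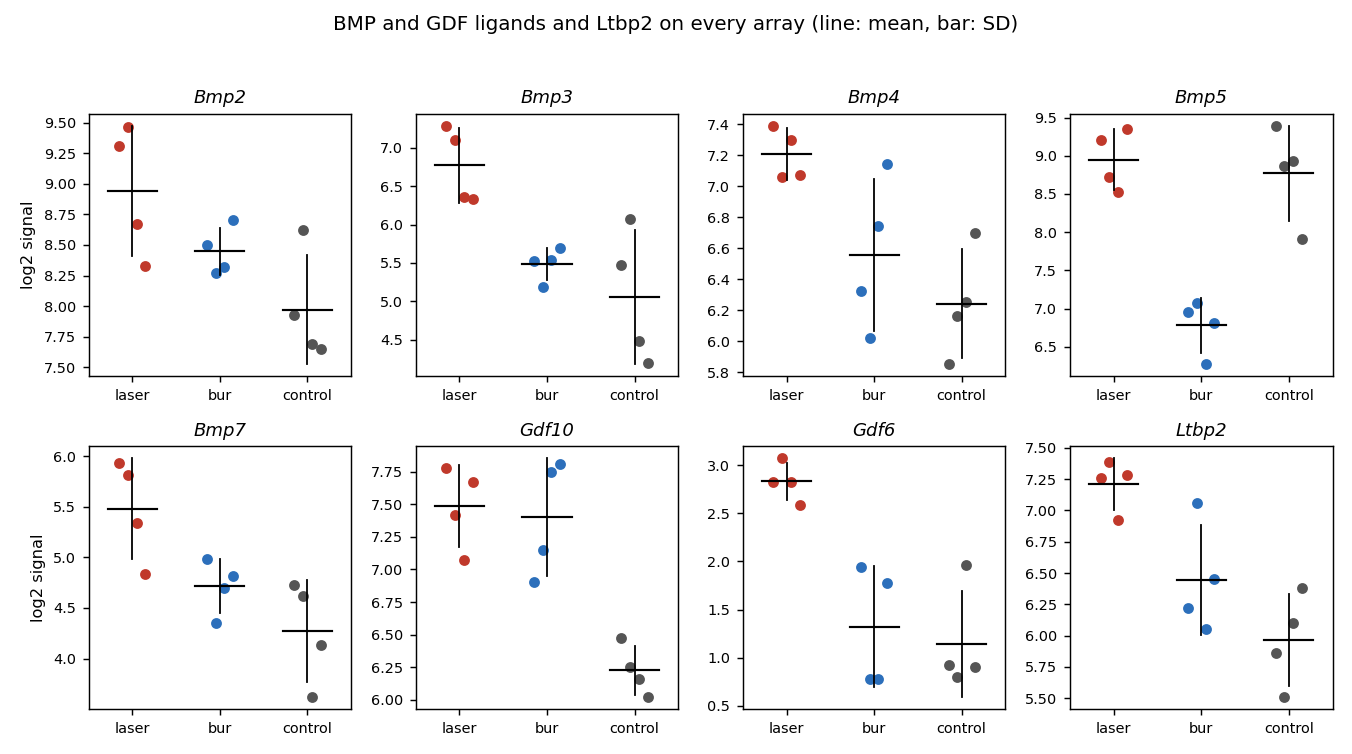
Log2 signal of 7 ligands and of Ltbp2, a latent binding protein, on each array (points) in laser, bur and control bone, with the group mean (horizontal line) and SD (vertical line). Scales differ between panels. The 4 bur arrays of Bmp5 lie between 6.27 and 7.07, below all laser and control arrays, and the 4 laser arrays of Bmp3 lie between 6.34 and 7.29, above all others.

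Cell type markers were set beside the ligands. Of all genes 35.8% were called in laser against control, 21.6% in bur against control and 29.7% in laser against bur bone. Of 8 osteoblast markers 4 rose in laser against control bone (50%) and 1 in bur against control bone (12.5%), and 3 were higher in laser than in bur bone (37.5%). Their summed signal was 229448 to 343265 on laser arrays, 160218 to 213293 on bur arrays and 112683 to 208488 on control arrays. Of 6 periosteal and fibroblast markers 5 rose in laser and 4 in bur against control bone, with sums of 9572 to 20769, 8748 to 20190 and 3459 to 5545. Other markers also moved. Of 5 neutrophil markers 3 rose in laser against control bone, 1 fell in bur against control bone and 3 were higher in laser than in bur bone. The neutrophil sums were 111070 to 152311 on laser arrays, 41419 to 67378 on bur arrays and 58101 to 83250 on control arrays. Of 3 measured skeletal muscle markers 2 rose in laser and 1 in bur against control bone. In laser against bur bone 2 of them were higher and 1 was lower. Of 2 measured chondrocyte markers 1 rose in laser against control bone and 2 were higher in laser than in bur bone. The muscle counts for laser bone include Acta1, well above background on 4 laser, 0 bur and 1 control arrays. The 2 chondrocyte markers higher than in bur bone include Col2a1, so read on 4, 0 and 0. Both passed the detection filter only through the laser arrays, so their calls are no support. Against bur bone they were at least 1.99-fold and 1.81-fold higher. The muscle and chondrocyte sums were at most 242 and 152 on any array. Osteocyte markers, 5 of them measured, summed to 11542 to 25251 on laser arrays and 17772 to 28566 on bur arrays, above the 5066 to 9455 on control arrays, and 2 rose in each comparison with control bone. All osteoblast, periosteal and neutrophil markers passed the detection filter, while Fgf23, Myh4, Acan and Col10a1 of the other lists did not. The part of these cells in the ligands' values was not tested.

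None of the 3 activin and inhibin subunit genes passed in any comparison. Inhba encodes the subunit of activin A, Inhbb that of activin B, and Inha the subunit found only in inhibins. Inhbb was 1.34 ± 0.44 log2 higher in bur than in control bone (adjusted p = 0.0506), with an interval from 0.37 to 2.31, and was called under 6 of the 24 other settings, among them the authors' deposited values refitted (1.01, adjusted p = 0.0407). It averaged 6.94 ± 0.46, 7.33 ± 0.91 and 5.99 ± 0.60 in laser, bur and control bone (SD, n = 4 each). Inhba differed by -0.03 in laser against control bone (-0.64 to 0.58) and by 0.36 in bur against control bone (-0.25 to 0.97). For Inha the largest of the 3 differences was -0.50, in laser against bur bone (adjusted p = 0.0629).

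Of the 3 TGF-beta ligand genes only Tgfb3 was called, in bur against control bone. It read 5.39, 5.45, 4.49 and 4.55 on the laser arrays, 4.94, 6.19, 4.95 and 5.39 on the bur arrays, and 4.46, 4.63, 4.41 and 3.93 on the control arrays. Bur 2 stood above the rest of its group, and bur and control arrays did not overlap. The rise was 1.01 ± 0.32 log2 (adjusted p = 0.0438), but it was lost when any of bur 2, bur 4, laser 1 or the 4 control arrays was left out, with an adjusted p of up to 0.106. Under 75th percentile scaling it was 0.88 and under normexp correction 0.29, neither called, and without control 1 and control 4 together it was 0.85 (adjusted p = 0.207). Tgfb2 differed by 1.0 in laser against control bone (0.17 to 1.83; adjusted p = 0.0582) and by 0.86 in bur against control bone (0.04 to 1.69; adjusted p = 0.128) by its brightest probe. Its other 3 probes gave 0.82 to 1.29 and 0.87 to 1.28, of which 2 and 1 were called when every probe was tested on its own. Tgfb2 was called under 7 other settings in laser against control bone and under 2 in bur against control bone. Among the 7 were the authors' deposited values refitted (0.95, adjusted p = 0.0315). Tgfb1, the main latent form in bone matrix, differed by 0.04 in laser against control bone (-0.73 to 0.82) and by 0.44 in bur against control bone (-0.33 to 1.22).

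Among type I receptors, 3 of 5 measured genes rose in laser against control bone and 1 in bur against control bone, and none passed in laser against bur bone. The rises were 60% and 20%, where 35.8% and 21.6% of all genes were called. Acvrl1, the receptor ALK1 of endothelial cells, rose in both comparisons with control bone. It averaged 8.24 ± 0.03 in laser bone, 8.37 ± 0.28 in bur bone and 7.67 ± 0.11 in control bone (SD, n = 4 each), a rise of 0.57 ± 0.14 log2 (SE; limma adjusted p = 0.00881) in laser bone and of 0.70 ± 0.14 (adjusted p = 0.00531) in bur bone. Both calls held under all 24 settings. Of the 6 endothelial markers 2 rose and 1 fell in laser against control bone, and 0 rose and 1 fell in bur against control bone, and their sums overlapped at 5238 to 5980 on laser arrays, 3559 to 6083 on bur arrays and 4516 to 7065 on control arrays.

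Bmpr1a, the type I receptor through which BMP2 and BMP4 signal, rose by 0.89 ± 0.20 log2 in laser against control bone (adjusted p = 0.00568), though its second kept probe gave 0.12 and was not called. The rise lost its call with the mean of the kept probes (0.50, adjusted p = 0.127) and without control 1 and control 4. Acvr1, the receptor ALK2, rose by 0.78 ± 0.21 (adjusted p = 0.0139), a call also lost without these 2 control arrays. In bur against control bone Bmpr1a differed by 0.53 and Acvr1 by 0.50, with intervals from 0.09 to 0.98 and from 0.04 to 0.95, and neither passed. Tgfbr1, the type I receptor of TGF-beta, differed by 0.14 in laser and 0.43 in bur against control bone. Acvr1b, an activin receptor, was read well above background on 4 laser, 1 bur and 3 control arrays and was not called.

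Of the 4 type II receptor genes only Bmpr2, the main type II receptor of BMPs, was called, with a rise of 0.63 ± 0.18 log2 in bur against control bone (adjusted p = 0.0301). Leaving out bur 3, bur 4, control 1, control 3 or control 4 ended that call (adjusted p up to 0.0833), as did array weights, a fit of only the groups compared and leaving out control 1 and control 4 together (adjusted p up to 0.152). In laser against control bone it differed by 0.17, and its other 2 probes disagreed there, at 0.73 (called when probes were tested one by one) and -0.19. Tgfbr2, Acvr2a and Acvr2b passed nowhere. Tgfbr2, which binds TGF-beta itself, averaged 10.64 ± 0.16, 11.13 ± 0.28 and 10.64 ± 0.43 in laser, bur and control bone. Under other settings Tgfbr2 was called 3 times in bur against control bone and 5 times in laser against bur bone. Among the latter were the authors' deposited values refitted (-0.64, adjusted p = 0.0249).

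Eng encodes endoglin, a co-receptor that works with ALK1 in endothelial cells and is also found on activated macrophages. It read 5.69, 5.94, 6.18 and 6.15 on the laser arrays, 7.05, 6.83, 6.52 and 7.05 on the bur arrays, and 5.37, 5.05, 5.86 and 6.29 on the control arrays. The bur arrays lay above all others, and laser and control arrays overlapped. It rose by 1.22 ± 0.25 log2 in bur against control bone (2.33-fold, adjusted p = 0.00579), a call that held under all 24 settings, and it was lower in laser than in bur bone (log2 fold change -0.87 ± 0.25, adjusted p = 0.0224). The second call was lost without bur 1, bur 4, laser 1 or laser 2, with an adjusted p of up to 0.0674. Among other members, the window of Ltbp2 held CAGAC at 3 places and those of Bmp4, Fstl3 and Skil at 2 each. The window at the start of Eng, chr3:36332029-36332328 on the plus strand of GRCr8, is shown as 1 example and held CAGAC at 2 places, in capitals.
Eng: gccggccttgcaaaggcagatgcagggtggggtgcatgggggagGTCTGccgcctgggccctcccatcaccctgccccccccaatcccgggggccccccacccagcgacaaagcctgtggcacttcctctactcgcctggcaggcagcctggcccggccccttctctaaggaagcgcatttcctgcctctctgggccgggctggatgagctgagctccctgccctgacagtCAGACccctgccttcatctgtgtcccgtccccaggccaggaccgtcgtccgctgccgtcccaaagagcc

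Bambi, a pseudoreceptor without a kinase that dampens BMP and TGF-beta signalling, rose after the laser. It read 10.56, 10.12, 9.56 and 9.49 on the laser arrays, 9.54, 8.72, 9.31 and 9.59 on the bur arrays, and 8.98, 9.41, 8.40 and 8.79 on the control arrays. All laser arrays lay above all control arrays, by little for the lowest, and laser and bur arrays overlapped. The rise was 1.04 ± 0.29 log2 in laser against control bone (adjusted p = 0.0183), lost without control 3, laser 1 or laser 2 (adjusted p up to 0.0542) and without control 1 and control 4 together (1.02, adjusted p = 0.0847). Tgfbr3, which encodes betaglycan, was read well above background on 2 laser, 0 bur and 2 control arrays and was not called.

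Of 6 extracellular antagonist genes, 1 rose and 1 fell in laser against control bone (33.3%, where 35.8% of all genes were called) and 1 rose in bur against control bone (16.7%, where 21.6% were). Fstl3, a follistatin-like protein that binds activins, read 6.57, 6.61, 6.24 and 6.61 on the laser arrays, 6.47, 6.06, 6.50 and 6.19 on the bur arrays, and 5.36, 6.18, 5.47 and 4.57 on the control arrays. Only control 2 came near the cut groups, within the range of the bur arrays. The rise was 1.11 ± 0.28 log2 in laser against control bone (adjusted p = 0.00938), lost without control 1 and control 4 together (highest adjusted p 0.0559). It was 0.91 ± 0.28 in bur against control bone (adjusted p = 0.0376), lost in 9 of the 12 fits with 1 array left out (adjusted p up to 0.0837): those without bur 1, bur 3, bur 4, control 1, control 3, control 4, laser 1, laser 2 or laser 4. Without control 1 and control 4 together it was 0.48 (adjusted p = 0.209).

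Grem1, which encodes the BMP antagonist gremlin 1, was lower after the laser, at 7.28 ± 0.37 in laser bone, 7.91 ± 0.33 in bur bone and 7.89 ± 0.20 in control bone (SD, n = 4 each). The log2 fold change was -0.61 against control (limma adjusted p = 0.0453) and -0.63 against bur (adjusted p = 0.0455), and each call was lost in 9 of the 12 fits with 1 array left out, with an adjusted p of up to 0.123 and 0.126. The first was kept only without bur 1, bur 4 or laser 2, and the second only without bur 1, control 2 or laser 2. Without control 1 and control 4 both were lost (adjusted p = 0.0719 and 0.0609), and so were both with no filter on dim probes. Chrd, which encodes chordin, differed by -0.52 in laser and by -0.67 in bur against control bone, with adjusted p of 0.109 and 0.0652. Nog, which encodes noggin, was well above background on 4 laser, 0 bur and 1 control arrays, and Nog, Fst and Fstl1 passed nowhere. Fstl1 was called under 3 of the other settings in bur against control bone.

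Of 8 SMAD genes, 1 rose and 2 fell in laser against control bone, 1 rose in bur against control bone, and 1 was higher and 3 were lower in laser than in bur bone. These were 37.5%, 12.5% and 50%, where 35.8%, 21.6% and 29.7% of all genes were called. Smad2, a SMAD of the TGF-beta class, averaged 7.78 ± 0.12 in laser bone, 8.40 ± 0.08 in bur bone and 8.16 ± 0.11 in control bone (SD, n = 4 each). It was lower in laser than in bur bone, with a log2 fold change of -0.62 ± 0.11 (SE; limma adjusted p = 0.00137), which held under all 24 settings, and lower than in control bone, at -0.38 ± 0.11 (adjusted p = 0.0182), lost without laser 3 (adjusted p = 0.0559), without control 1 and control 4 together (adjusted p = 0.0653) and with the authors' deposited values refitted (-0.22, adjusted p = 0.144). The shared Smad4 averaged 4.69 ± 0.11, 5.49 ± 0.11 and 5.18 ± 0.25 in laser, bur and control bone. It was lower in laser than in bur bone, with a log2 fold change of -0.80 ± 0.14 (limma adjusted p = 0.00123) and lower than in control bone, at -0.49 ± 0.14 (adjusted p = 0.0171). Its second kept probe gave -0.61 and 0.33, neither called, and with the authors' deposited values refitted the difference from control was 0.01, so the call of Smad4 against control bone depended on the processing. That against bur bone was lost with the mean of the kept probes (-0.71, adjusted p = 0.0600), and kept under the other 23 settings. Smad1, a SMAD of the BMP class, was lower in laser than in bur bone, with a log2 fold change of -0.47 ± 0.16 (adjusted p = 0.0497), and the call was lost in 11 of the 12 fits with 1 array left out, all but that without bur 1, with an adjusted p of up to 0.131.

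Smad7, an inhibitory SMAD that TGF-beta itself is known to induce, was higher after the laser, at 8.61 ± 0.24 in laser bone, 8.23 ± 0.06 in bur bone and 8.08 ± 0.08 in control bone (SD, n = 4 each). The rise of 0.52 ± 0.13 log2 (SE) against control (limma adjusted p = 0.00887) held under all 24 settings. That of 0.38 ± 0.13 against bur (adjusted p = 0.0467) was lost in 10 of the 12 fits with 1 array left out, all but those without laser 4 or control 1 (adjusted p up to 0.137), and under 75th percentile scaling (0.26, adjusted p = 0.149). Smad3 rose by 0.59 ± 0.16 in bur against control bone (adjusted p = 0.0236), lost without bur 4, control 3 or control 4 (adjusted p up to 0.0664), with normexp correction (0.29, adjusted p = 0.0776) and without control 1 and control 4 together (adjusted p = 0.0980). Its difference in laser against control bone was 0.41 (0.05 to 0.76; adjusted p = 0.0694). Smad5, Smad6 and Smad9 passed nowhere, and Smad6 and Smad9 were read well above background on 4 laser arrays but on only 1 and 0 bur arrays and on 1 control array each.

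**Figure D3:**
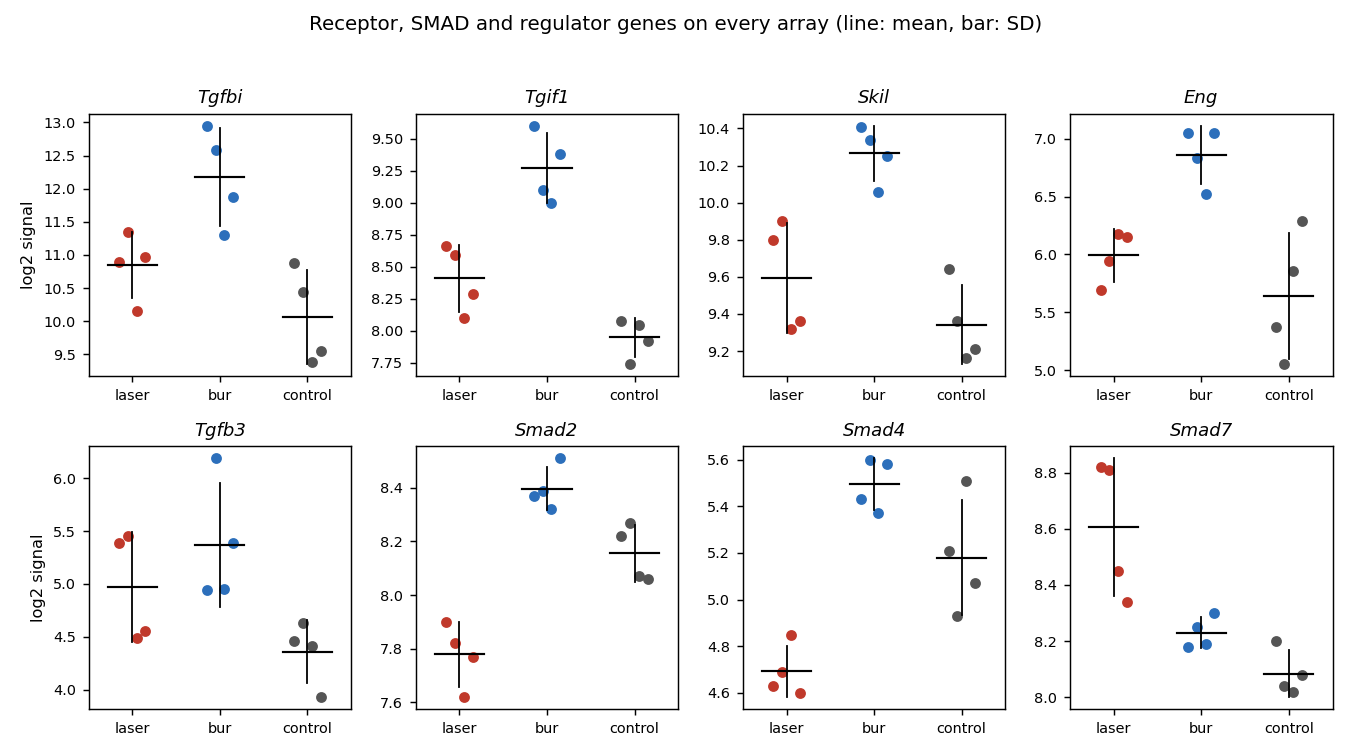
Log2 signal of 8 members on each array (points) in laser, bur and control bone, with the group mean (horizontal line) and SD (vertical line); Tgfbi is a matrix protein, Tgif1 and Skil co-repressors, Eng a co-receptor and Tgfb3 a ligand. Scales differ between panels. The 4 bur arrays of Tgif1, Skil and Eng lie above all laser and control arrays, and the 4 laser arrays of Smad2 and Smad4 lie below all bur and control arrays.

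Of 5 genes of ubiquitin ligases and nuclear co-repressors, which limit the output of SMADs, 3 rose in bur against control bone (Tgif1, Skil and Smurf2), 0 were called in laser against control bone, and 3 were lower in laser than in bur bone. These were 60%, 0% and 60%, where 21.6%, 35.8% and 29.7% of all genes were called. Tgif1, a homeobox co-repressor that binds SMAD2, read 8.66, 8.59, 8.10 and 8.29 on the laser arrays, 9.60, 9.10, 9.0 and 9.38 on the bur arrays, and 8.08, 7.74, 8.05 and 7.92 on the control arrays. The bur arrays stood clear of both other groups, and the lowest laser array was just above the highest control array. The rise was 1.32 ± 0.17 log2 in bur against control bone (2.5-fold, adjusted p = 0.000608), and laser bone was lower than bur bone, at -0.86 ± 0.17 (adjusted p = 0.00324). Both calls held under all 24 settings. Laser against control bone gave 0.46 (0.08 to 0.84; adjusted p = 0.0557).

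Skil encodes SnoN, a co-repressor that TGF-beta induces and that blocks SMAD-driven transcription. It averaged 9.59 ± 0.30 in laser bone, 10.27 ± 0.15 in bur bone and 9.34 ± 0.21 in control bone (SD, n = 4 each). It rose by 0.92 ± 0.17 log2 (SE) in bur against control bone (limma adjusted p = 0.00320) and was lower in laser than in bur bone, at -0.67 ± 0.17 (adjusted p = 0.0113), and both calls held under all 24 settings. Its 3 probes gave 0.92, 1.1 and 0.96 in bur against control bone, all called when tested one by one. The window at its start, chr2:114203523-114203822 on the minus strand of GRCr8, is shown because it held CAGAC and GGCGCC at 2 places each.
Skil: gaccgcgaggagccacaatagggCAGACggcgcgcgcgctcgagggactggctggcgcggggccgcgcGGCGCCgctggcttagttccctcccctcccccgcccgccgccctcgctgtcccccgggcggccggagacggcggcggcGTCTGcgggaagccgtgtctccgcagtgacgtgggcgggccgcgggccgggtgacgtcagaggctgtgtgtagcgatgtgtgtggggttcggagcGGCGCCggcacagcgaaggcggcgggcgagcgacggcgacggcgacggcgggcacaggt
Smurf2, a ubiquitin ligase that targets SMADs and receptors, rose by 0.37 ± 0.11 in bur against control bone (limma adjusted p = 0.0281) and was lower in laser than in bur bone, at -0.35 ± 0.11 (adjusted p = 0.0293). Each Smurf2 call was lost in 6 of the 12 fits with 1 array left out, with an adjusted p of up to 0.0677 and 0.0804. The first was lost without bur 2, bur 3, bur 4, control 1, control 2 or control 3, and the second without bur 2, bur 3, bur 4, laser 1, laser 3 or laser 4. The Smurf2 rise was also lost without control 1 and control 4 together (adjusted p = 0.0831). Smurf1, the sister ligase, and Ski, the relative of SnoN, differed by 0.29 and 0.40 in bur against control bone and passed nowhere by their brightest probes, although another probe of Ski gave 1.44 in laser against control bone and was called on its own. In bur against control bone both were called with normexp correction and with the authors' deposited values refitted (0.52 and 0.66). In laser against bur bone Smurf1 was called under 1 other setting and Ski under 2.

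**Figure D4:**
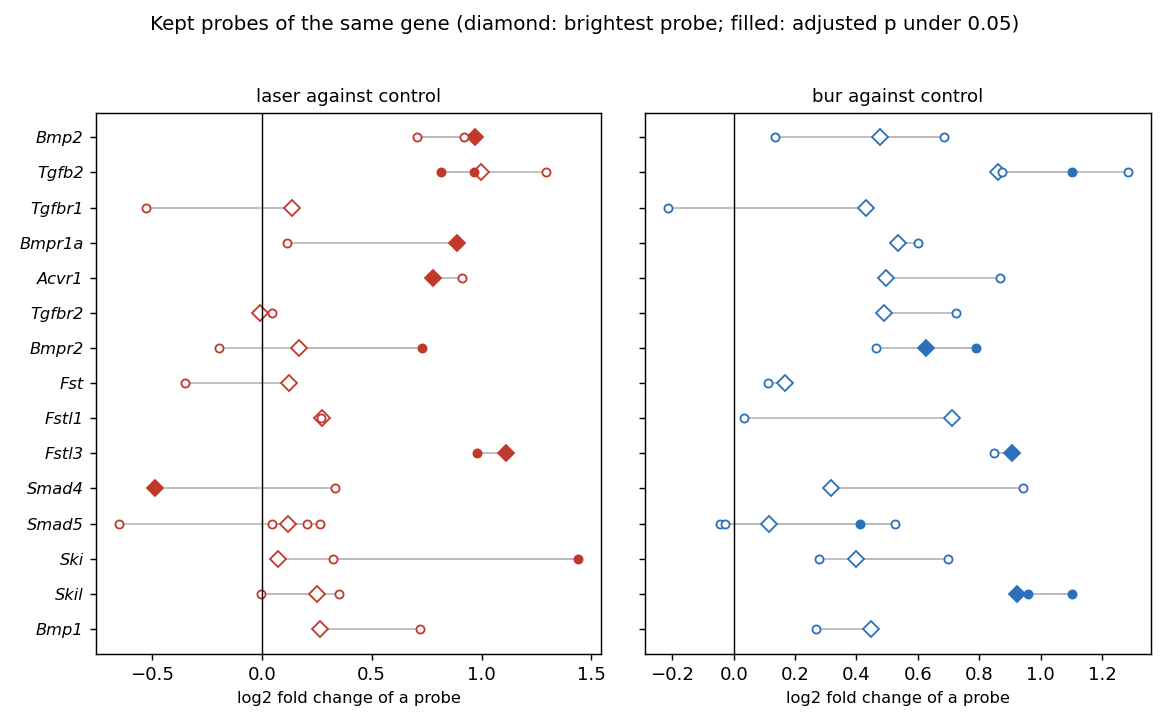
Log2 fold change of each kept probe for the 15 members with more than 1, in laser against control (left) and bur against control bone (right); diamonds are the brightest probes, which stand for the gene elsewhere, circles the other probes, and filled symbols have an adjusted p under 0.05 when all kept probes are tested one by one. The 3 probes of Skil lie within 0.92 to 1.1 in bur against control bone, and the probes of Bmpr2, Smad4 and Ski spread widely in laser against control bone.

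The latent binding proteins hold TGF-beta in the matrix. Ltbp2, which unlike its relatives is not known to bind TGF-beta, read 7.26, 7.39, 6.92 and 7.28 on the laser arrays, 6.22, 7.06, 6.05 and 6.45 on the bur arrays, and 5.86, 5.51, 6.10 and 6.38 on the control arrays. Laser arrays lay above all control arrays, and bur 2 reached into the laser range. It rose by 1.25 ± 0.24 log2 in laser against control bone (2.37-fold, adjusted p = 0.00216), under all 24 settings. Against bur it was 0.76 ± 0.24 higher (adjusted p = 0.0325), lost without bur 1, bur 3, bur 4, laser 1, laser 2 or laser 4 (adjusted p up to 0.0866). Ltbp3, which binds latent TGF-beta in bone, rose by 0.98 ± 0.22 in laser bone (adjusted p = 0.00546) and by 0.69 ± 0.22 in bur bone (adjusted p = 0.0449) against control. The first held under all 24 settings, and the second was lost in 9 of the 12 fits with 1 array left out, all but those without bur 2, control 3 or laser 4 (adjusted p up to 0.122), and without control 1 and control 4 together (adjusted p = 0.162). Ltbp1 and Ltbp4 passed nowhere.

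Tgfbi encodes a matrix adhesion protein that TGF-beta induces. It read 10.89, 11.35, 10.16 and 10.97 on the laser arrays, 12.95, 12.58, 11.30 and 11.87 on the bur arrays, and 10.88, 10.44, 9.39 and 9.55 on the control arrays. Bur and control arrays did not overlap, and the lowest bur array lay just under the highest laser array. It rose by 2.12 ± 0.43 log2 in bur against control bone (4.33-fold, adjusted p = 0.00533), under all 24 settings. Laser bone was lower than bur bone, at -1.33 ± 0.43 (adjusted p = 0.0357), a call lost without bur 1, bur 2, bur 4, laser 1, laser 3 or laser 4 (adjusted p up to 0.0991). In laser against control bone it differed by 0.78 (-0.15 to 1.72). Bmp1, a procollagen protease and not a BMP ligand despite its name, passed nowhere.

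Markers of monocytes and macrophages were set beside Tgfbi and Eng. Of 7 such genes, all above the detection filter, 5 rose in bur against control bone, 3 rose in laser against control bone and 4 were lower in laser than in bur bone. Their summed signal was 42441 to 65500 on laser arrays, 77531 to 122924 on bur arrays and 49848 to 78966 on control arrays. Laser and control sums overlapped, and so did bur and control sums, since the lowest bur sum lay just under the highest control sum. The log2 fold changes of the 7 ran from -0.74 to 1.29 in laser and from -0.38 to 3.25 in bur against control bone. Of all genes 21.6% were called in bur against control, 35.8% in laser against control and 29.7% in laser against bur bone. The part of these markers in the values of Tgfbi and Eng was not tested.

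Other genes of the pathway were set beside the members. Their lists were made by role with earlier results of these data known, so the shares called are no test. Of 17 known TGF-beta target genes, 11 rose and 0 fell in laser against control bone (64.7%, where 35.8% of all genes were called), and 12 rose and 0 fell in bur against control bone (70.6%, where 21.6% were). In laser against bur bone 1 was higher and 3 were lower (23.5%, where 29.7% were). Cdkn1a, which encodes the cell cycle inhibitor p21, rose by 0.91 ± 0.27 in laser and by 1.87 ± 0.27 log2 in bur against control bone, and was lower in laser than in bur bone (log2 fold change -0.97, adjusted p = 0.0210). Tagln and Col3a1, genes of contractile and matrix-forming fibroblasts, rose by 1.26 and 1.93 in laser bone and by 1.0 and 2.04 in bur bone. Fn1, which encodes fibronectin, rose in bur bone by 1.74 and was lower in laser than in bur bone (log2 fold change -2.10, adjusted p = 0.000318), with -0.36 and no call in laser against control bone. Without control 1 and control 4 the counts were 7 rises and 0 falls in both comparisons with control bone. Of all genes 25.9% were then called for laser and 13.4% for bur against control bone. Several of these genes, Col3a1 and Postn among them, are also markers of periosteal cells and fibroblasts, whose sums are given above.

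Of 13 measured BMP target genes, Id3 and Tcf7l1 passed the detection limit only through the laser arrays. Of the other 11, 5 rose and 1 fell in laser against control bone, where 35.8% of all genes were called. In bur against control bone 2 rose and 1 fell, where 21.6% were called. In laser against bur bone 1 was higher and 1 lower, where 29.7% were called. Runx2 and Sp7 are also in the list of osteoblast markers, whose sums are given above. With all 13 genes the counts were 7 and 1, 2 and 1, and 3 and 1. Without control 1 and control 4 these became 5 and 1, 1 and 1, and 3 and 1, where 25.9%, 13.4% and 30.3% of all genes were then called. Both sets of counts include Id3 and Tcf7l1. Dlx3, a homeobox gene of osteoblasts, was 2.37 ± 0.20 log2 higher in laser than in control bone and 2.65 ± 0.20 higher than in bur bone. Runx2, the master regulator of osteoblasts, rose by 0.97 ± 0.20 in laser bone. Id3 was well above background on all 4 laser arrays and on 0 bur and control arrays, so that it was at least 17.9-fold higher in laser than in control bone and at least 15.6-fold higher than in bur bone. Tcf7l1, read likewise, was at least 4.16-fold and at least 3.97-fold higher. No p is given for either. Gata2 fell in both comparisons with control bone, with log2 fold changes of -1.02 in laser and -0.85 in bur bone.

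**Figure D5:**
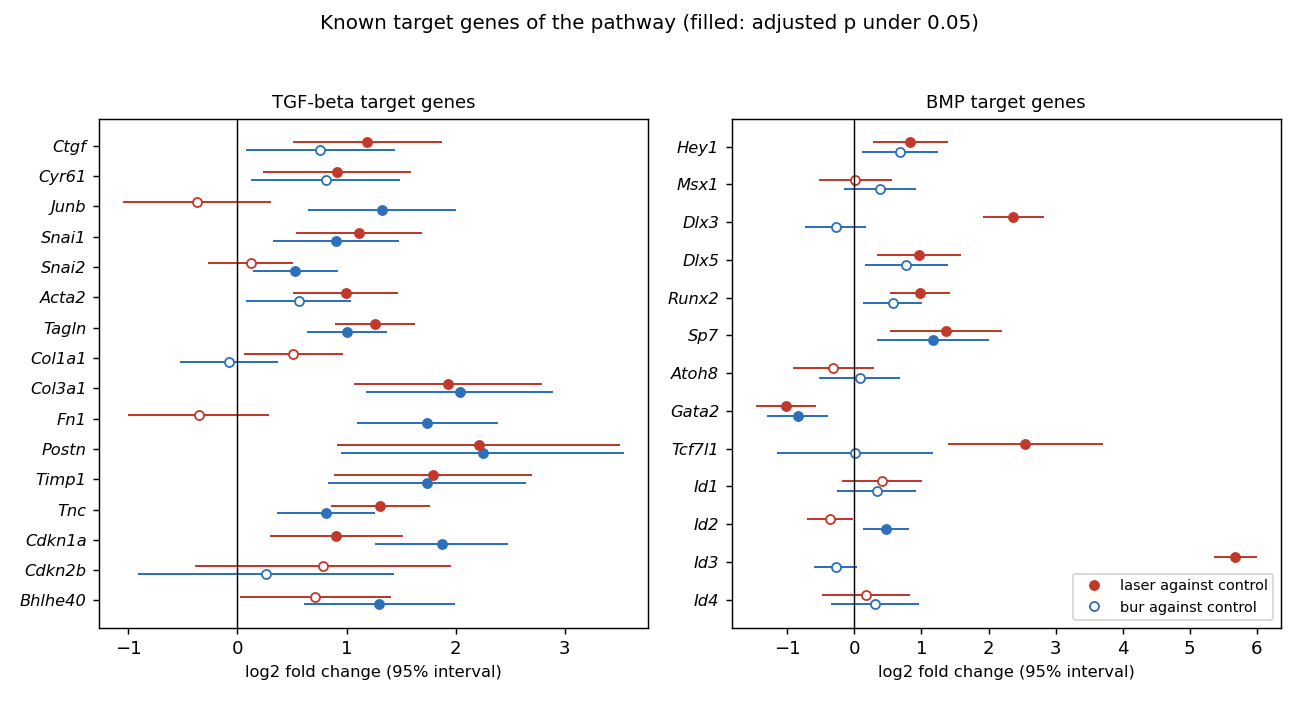
Log2 fold change of 16 of the 17 TGF-beta target genes (left) and 13 BMP target genes (right) with 95% intervals, for laser against control (red) and bur against control bone (blue); filled points have an adjusted p under 0.05. Of the TGF-beta targets drawn 10 are filled to the right for laser and 11 for bur, while of the BMP targets 7 are for laser and 2 for bur. The fitted values of Id3 and Tcf7l1 for laser are drawn at 5.68 and 2.55, but only the bounds in the text apply, because neither gene was well above background in control bone.

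Of 15 SMAD partners and turnover factors, 1 rose and 6 fell in laser against control bone, and 4 rose and 3 fell in bur against control bone. Each was 46.7%, where 35.8% and 21.6% of all genes were called. Trim33 and Wwp1, ubiquitin ligases that act on SMADs or receptors, fell by 1.37 and 0.95 log2 in laser bone. Trim33 also fell by 0.63 in bur bone. Pmepa1, a TGF-beta-induced inhibitor of the receptor's access to SMADs, rose by 2.10 ± 0.29 in laser against control bone and was 1.13 ± 0.29 higher in laser than in bur bone. Of 11 genes of latent TGF-beta activation and storage, 1 rose and 2 fell in laser bone and 2 rose and 1 fell in bur bone (27.3% in each). Nrros, which holds latent TGF-beta on myeloid cells and microglia, fell by 0.84 in laser against control bone, while Itgav, an integrin subunit that activates latent TGF-beta, rose by 0.45 in laser and 0.53 in bur bone.

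Of 13 other antagonists and co-receptors, 2 rose and 1 fell in laser bone and 1 rose and 1 fell in bur bone. These were 23.1% and 15.4%, where 35.8% and 21.6% of all genes were called against control bone. Acvr1c, the receptor ALK7 known from fat cells, fell by 1.65 in laser and by 1.71 in bur bone, and Htra1, a secreted protease, rose by 0.90 and 0.83. Of 8 other ligands, 1 rose in each comparison with control bone (12.5%). Gdf3 rose by 3.13 ± 0.61 in bur against control bone (adjusted p = 0.00445) and was lower in laser than in bur bone, at -2.26 (adjusted p = 0.0166), and Lefty2, a known inhibitor of Nodal, rose by 1.21 ± 0.17 in laser bone. Lefty2 was well above background on 4 laser, 3 bur and 1 control arrays.

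The authors' deposited table of comparisons listed the brightest probe of 44 members. In the authors' deposited table, higher were 14 of them and lower 0 at an adjusted p under 0.05 in laser against control bone, where 39.2% of the table's entries were called. It called 22 higher and 2 lower in bur against control bone, where 31.3% were called, and 5 higher and 13 lower in laser against bur bone, where 31.7% were called. Bmp5 stood at -1.96 in bur against control bone and at 2.03 in laser against bur bone in the authors' deposited table. The falls of Smad2 and Smad4 in laser against control bone were not called there, at -0.22 and 0.01.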

How the data were processed

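Total RNA of 12 calvarial samples (200 ng each) was labelled with Cy3 and hybridised to single-colour arrays, per the labels' protocols. The deposited scanner files hold a processed intensity per spot, background-corrected by the scanner software, which the submitters' processing notes name as Agilent Feature Extraction 11.0.1.1. There were 62976 spots on an array, 4259 of them controls. Probe positions in the files are of build rn4. The authors' deposited expression values are log2, named quantile normalized, and their comparison table gives log2 fold changes with p-values and adjusted p-values, per the file headers.

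Log2 intensities were quantile normalized between arrays. Control and outlier spots were left out, spots of a probe were averaged, and 27194 probes well above background on at least 4 arrays were kept. A gene is its brightest kept probe under the files' gene name. Of the members' 85 probes 64 matched a RefSeq accession, and 0 of these had another symbol. All arrays entered 1 limma 3.58.1 fit (R 4.3.3), tested on simulated data beforehand.

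Whether replicates are separate animals is not in the labels, so p-values measure only how these samples spread, which may be technical. The number of arrays limits the precision. No arrays were duplicates: the closest pair in a group correlated at 0.989. Replicate numbers were not taken to pair the samples, as no comparison had every same-numbered pair of arrays above the limit of 0.1 on the correlation of deviations: they ran from -0.07 to 0.24 in laser against control, 0.09 to 0.20 in bur against control and -0.05 to 0.31 in laser against bur bone. Setting aside genes that passed the filter through a single group was added after seeing the data. The members, the lists of other pathway and marker genes and the alternatives were chosen with earlier results of these data known. Array values are printed for each member called with a log2 fold change of at least 1 in size. Of each role group up to 3 others, and of each list up to 4 called genes a comparison with the smallest p, could be named, and a subset is printed. A gene so chosen is not reported here. Alternatives were another scaling, normexp correction with an offset of 50, other filters, the authors' values, other samples in the fit, array weights, a replicate block, other rules for probes and names, and leaving out arrays.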

Additional observations from a re-analysis of the deposited data

Results flagged for a closer look

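Within each group of 4 arrays, a value was set apart where its gap to the nearest other value, divided by the group's range, was above Dixon's critical value for 4 values. This held for 4 of 150 groups of members (2.67%), and chance gives about 1 in 20. Gdf6 was highest on control 3, at 1.96 log2 against 0.92 for the next array, where no control array was well above background. Bmpr1a was lowest on laser 4, at 6.38 against 6.94. Chrd was lowest on control 1, at 4.96 against 5.42. Fstl3 was lowest on laser 3, at 6.24 against 6.57.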

How the results depend on the processing

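Each count of called members, and the fold change of each member called, was recomputed under 24 other settings. In bur against control bone the 13 calls (26.0% of the members tested) became 20 with normexp correction (40.0%, against 28% of all genes). They became 23 with the authors' deposited values (50% of 46, against 29.6%) and 8 without control 1 and control 4 (16.0%, against 13.4%). With only the 2 groups compared they were 8, and with 1 array left out 7 to 15. In laser against control bone the 17 calls became 10 without control 1 and control 4 (20.0%, against 25.9% of all genes). They became 16 with normexp correction (32.0%, against 36.6%) and 13 with the authors' deposited values (28.3% of 46, against 37.7%). With 1 array left out they were 15 to 19. In laser against bur bone the 14 calls became 16 with normexp correction (32.0%, against 30.3% of all genes) and 15 with the authors' deposited values (32.6% of 46, against 30.3%). They became 11 without control 1 and control 4 (22.0%, against 30.3%). With 1 array left out they were 6 to 12, lowest without laser 1. Shares of all genes are not given for fits with 1 array left out, of only the 2 groups compared or with a replicate block. Fewer samples enter the fits that leave arrays out; the cause of the other shifts was not tested. With a replicate block, where the numbers are only a shared number and a slide row, the counts were 16 for bur against control, 20 for laser against control and 13 for laser against bur bone, and not every array correlated best with its own number. In bur against control bone the block ended the calls of Bmpr2 and Fstl3 (adjusted p = 0.0529 and 0.0516) and called Chrd, Fstl1, Inhbb, Tgfb2 and Tgfbr2. In laser against control bone it ended that of Grem1 and called Chrd, Tgfb2, Tgfbi and Tgif1, and in laser against bur bone it ended those of Grem1, Smad1 and Smad7 and called Bmp7 and Tgfbr2. Of the single values, 252 of 312 in bur against control, 371 of 406 in laser against control and 260 of 334 in laser against bur bone kept direction and call, and 60, 34 and 74 kept only the direction. The 1 that turned was Smad4 in laser against control bone, at 0.00943 with the authors' deposited values against -0.49; the cause was not tested. Under 75th percentile scaling the members' calls were 14 higher and 3 lower in laser against control, 12 and 2 in bur against control and 5 and 10 in laser against bur bone. Of the target lists, 11 TGF-beta targets rose in laser and 11 in bur against control bone under that scaling, and 12 and 14 under normexp correction. Low signal on bur and control arrays limits Gdf6, Tgfbr3, Nog, Smad6, Smad9, Acvr1b and Acvr2b.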
